A study of Mus musculus with 6 samples.

Results

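Genes that fold proteins in the endoplasmic reticulum (ER), clear misfolded proteins from it and signal its overload were examined in sorted mouse intestinal stem cells after inhibition of gamma-secretase. The group holds 40 genes, listed by name and matched to array probe sets that carry a single gene symbol. All 40 were measured, out of 18193 genes on the array. They comprise 15 chaperones and folding helpers, 6 protein disulfide isomerases, 9 genes of ER-associated degradation (ERAD), 4 stress sensors or their early effectors, and 6 stress genes of the ATF4-CHOP branch. Each gene is represented by the probe set with the highest mean over all 6 arrays.

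The samples were GFP-high small intestinal cells of Lgr5-EGFP-IRES-creERT2 mice. In these animals a cassette in the Lgr5 gene, a marker of crypt base stem cells, drives EGFP and a tamoxifen-dependent Cre, and the labels name no allele for the Cre to act on. RNA of 3 mice given DBZ and of 3 mice given vehicle (DMSO), collected at 24 h, was hybridised to 1 Affymetrix array per mouse. DBZ is a gamma-secretase inhibitor (GSI), and it thereby stops the cleavage that frees the signalling domain of Notch receptors. The study asked how gut gene expression responds when NOTCH1 is blocked. Groups follow the sample titles. The free-text descriptions mention DMSO on each of the 6 arrays. Age, sex and strain are not given in the labels, and the unit of the DBZ dose appears incomplete there, so the dose is not used.

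Proteins bound for secretion fold in the ER with the help of chaperones, of isomerases that form disulfide bonds, and of a sugar-based quality control cycle. Proteins that fail are drawn back into the cytosol and degraded by ERAD. When unfolded proteins accumulate, the sensors IRE1 (Ern1), PERK (Eif2ak3) and ATF6 start the unfolded protein response: IRE1 splices the Xbp1 message, ATF6 is cut to release a transcription factor, and PERK slows translation while favouring ATF4, which in turn can induce CHOP (Ddit3). Goblet and Paneth cells of the intestine secrete large amounts of protein and depend on this machinery.

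Many of these genes are known to be controlled through short promoter elements, so their promoters were read first. The element bound by ATF6 with NF-Y, called ERSE, was searched as CCAAT and CCACG with 9 bases of any kind between them, the related ERSE-II as ATTGG and CCACG with 1 base between them, the C/EBP-ATF element (CARE) used by ATF4 and CHOP as TGATGNAA, and the unfolded protein response element (UPRE) as TGACGTGG. Each was searched on both strands of RefSeq promoters of build GRCm38.p6, which run from 250 bases before to 50 bases after the annotated start. Of the 40 genes 36 had such a promoter. ERSE and ERSE-II share the CCACG end and differ in the other end and the spacing.

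The promoter of Hspa5, which encodes the chief ER chaperone BiP, is printed whole as that of the best known target of the response. It spans chr2:34771840-34772139 on the plus strand, and capitals mark the exact match to the ERSE pattern. Sites that depart from the pattern were not searched and stay in lower case.
Hspa5: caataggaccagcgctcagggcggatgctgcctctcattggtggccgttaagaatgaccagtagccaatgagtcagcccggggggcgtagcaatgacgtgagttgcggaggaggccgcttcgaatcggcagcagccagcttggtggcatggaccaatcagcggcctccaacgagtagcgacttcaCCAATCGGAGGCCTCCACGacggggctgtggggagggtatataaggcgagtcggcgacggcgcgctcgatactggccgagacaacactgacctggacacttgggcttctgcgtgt

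An ERSE was present in 9 of the 36 genes, or 25.0%, against 0.137% of all 27025 genes and 0.119% of all 32851 promoters in the table. The genes were listed by name for this response, and the patterns come from general knowledge of the same response. The shares of this and the other elements therefore describe the list and test nothing. By role these were 6 chaperones, 1 disulfide isomerase and 2 ERAD genes. The 10 matches began between 44 and 212 bases before the start, 6 of them on the strand of the gene and 4 on the opposite strand. The remaining windows are shown 5′ to 3′ on the strand of the gene, with 15 bases on either side, so that they can be set beside the expression values given below. A match in the opposite orientation reads CGTGG first. Their positions, in the order of the lines, are chr12:17266476-17266524 (plus strand), chr15:88819505-88819553 (plus), chr14:118937812-118937860 (plus), chr8:84847060-84847108 (minus), chr10:75893227-75893275 (plus), chr10:86705623-86705671 and chr10:86705518-86705566 (both minus), chr19:6046517-6046565 (plus) and chr11:50325785-50325833 (minus).
Pdia6: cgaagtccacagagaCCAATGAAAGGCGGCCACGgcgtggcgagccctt
Creld2: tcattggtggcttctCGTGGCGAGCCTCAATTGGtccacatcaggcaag
Dnajc3: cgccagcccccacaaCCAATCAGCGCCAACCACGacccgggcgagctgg
Calr: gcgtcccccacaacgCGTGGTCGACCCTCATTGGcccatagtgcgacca
Derl3: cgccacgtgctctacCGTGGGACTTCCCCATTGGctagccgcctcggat
Hsp90b1, distal: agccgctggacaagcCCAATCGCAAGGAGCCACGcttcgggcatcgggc
Hsp90b1, proximal: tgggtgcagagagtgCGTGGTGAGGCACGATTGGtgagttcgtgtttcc
Syvn1: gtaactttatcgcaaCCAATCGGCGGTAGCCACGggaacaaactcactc
Canx: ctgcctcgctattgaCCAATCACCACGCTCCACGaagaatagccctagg

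ERSE-II was present in 2 of the 36 genes, Dnajb11 and Herpud1, against 0.0444% of all genes and 0.0365% of all promoters. CARE was present in 5 of 36, against 4.51% of all genes and 3.97% of all promoters, and 3 of the 5 were among the 6 ATF4-CHOP genes. UPRE was present in Txndc5 alone, against 0.714% of all genes and 0.676% of all promoters. The windows of ERSE-II and of the ATF4-CHOP genes with a CARE lie, in the order of the lines, at chr16:22857837-22857877 (plus strand), chr8:94386362-94386402 (plus), chr6:7693210-7693247 (minus), chr2:119351034-119351071 (plus) and chr2:152344024-152344061 (minus). Capitals mark ERSE-II in the first pair and CARE in the others.
Dnajb11: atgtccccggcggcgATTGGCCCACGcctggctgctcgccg
Herpud1: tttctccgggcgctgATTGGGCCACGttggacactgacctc
Asns: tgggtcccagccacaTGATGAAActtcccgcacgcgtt
Chac1: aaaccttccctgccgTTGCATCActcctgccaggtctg
Trib3: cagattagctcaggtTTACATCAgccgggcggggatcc

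**Figure D1:**
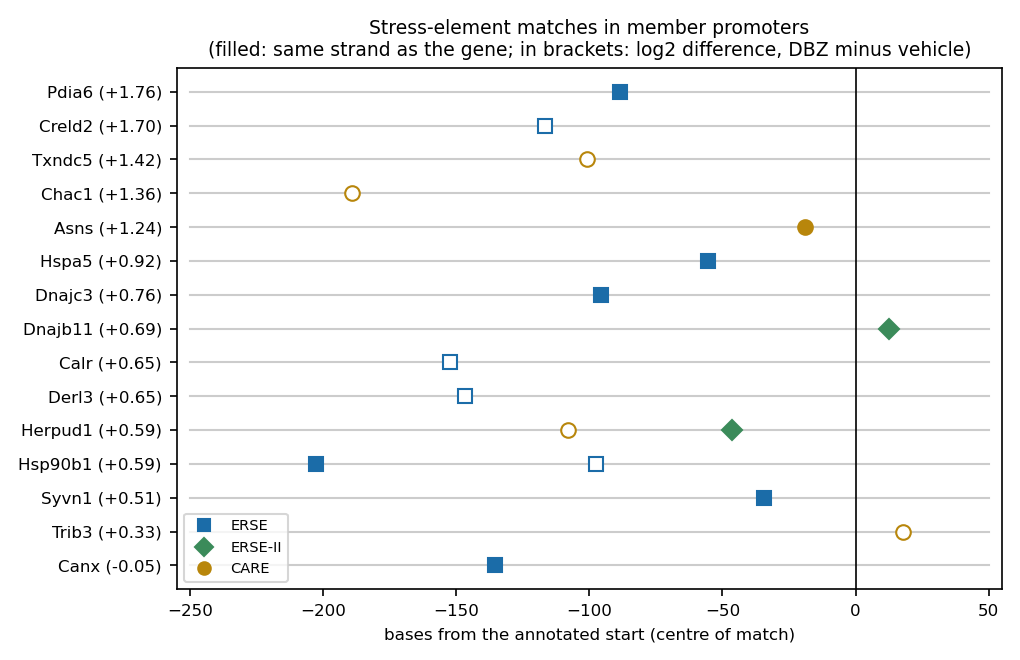
Position of ERSE, ERSE-II and CARE matches in the promoters of the genes that hold one, as bases from the annotated start (x axis), with genes ordered by their log2 difference between DBZ and vehicle arrays (in brackets). Filled symbols lie on the strand of the gene and open ones on the opposite strand. Genes with an ERSE are spread from Pdia6 at 1.76 to Canx at -0.05.

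Most of the ER genes had higher intensities in DBZ arrays. Of the 40, 12 rose by the test over all genes and 0 fell (limma on log2 of intensity plus 16, Benjamini-Hochberg adjusted p under 0.05), where 3.82% of all 18193 genes rose and 1.52% fell. The difference was above 0 for 39 of the 40, against 45.4% of all genes. In 32 of the 40 every DBZ array lay above every vehicle array, against 17.3% of all genes, and in 0 did every DBZ array lie below, against 15.8%. A difference above 1 was seen in 11 of the 40, against 2.12% of all genes, and an unadjusted p under 0.05 in 31, against 26.3%. The median difference of the 40 was 0.67 on the log2 scale and that of all genes -0.02. Adding 16 understates the change of dim genes. The groups of 3 limit the precision of every value, and an exact permutation test of a single gene cannot go below p = 0.1.

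The number of calls changed when single arrays were left out. Such a fit also holds 1 array fewer, so a lost call need not come from the array left out. Leaving out vehicle replicate 1, 2 or 3 left 1, 0 and 1 of the 40 past the test, and leaving out DBZ replicate 1, 2 or 3 left 22, 1 and 11. The share of all genes that rose in the same fits was 0.231%, 0.0879% and 0.187% without each vehicle array, and 7.17%, 0.945% and 1.53% without each DBZ array. The 1 gene left in 3 of those fits was Pdia5. The median difference stayed between 0.48 and 0.81 over the 6 fits.

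**Figure D2:**
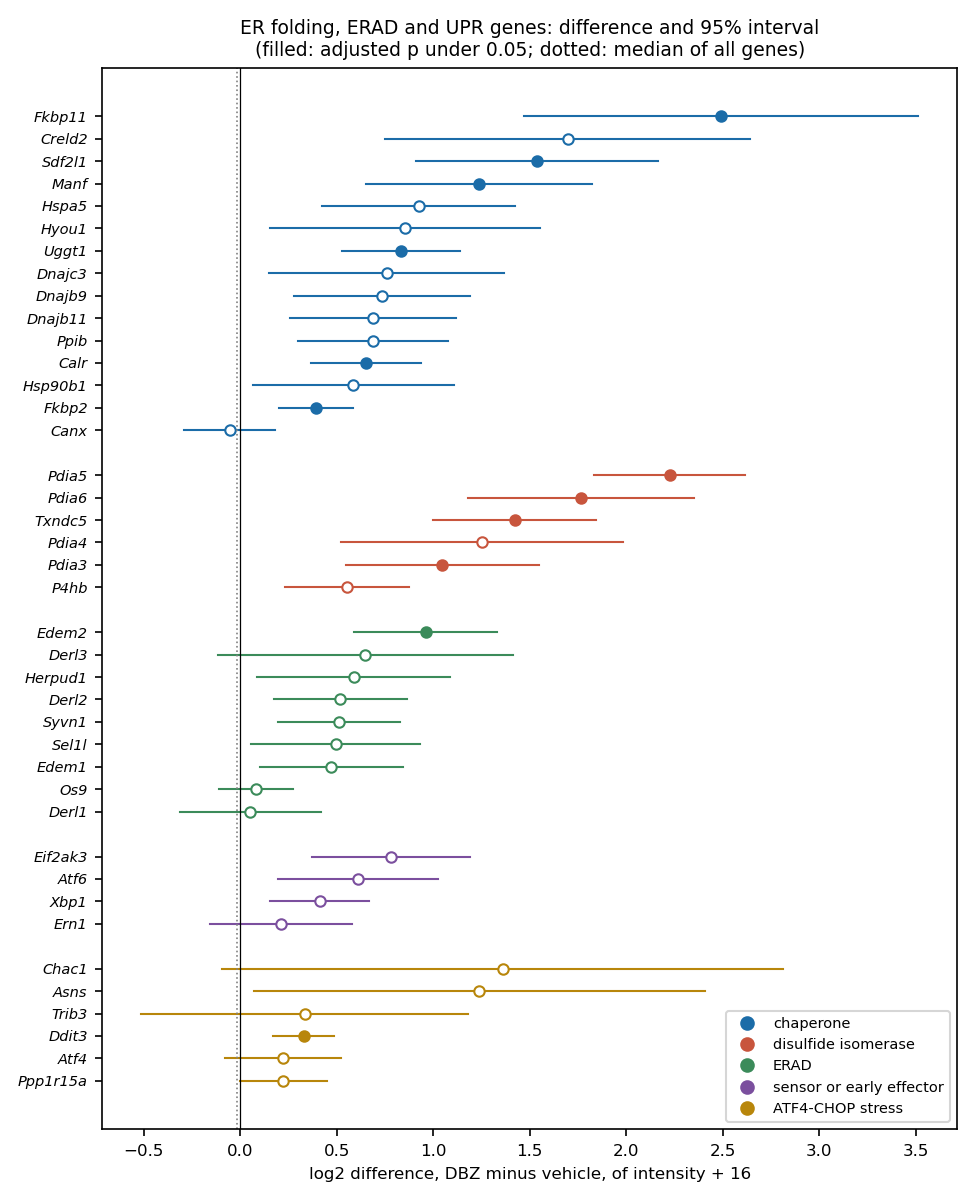
Log2 difference, DBZ minus vehicle, of each of the 40 genes (points) with its 95% interval (lines), grouped by role, for 3 DBZ and 3 vehicle arrays. Filled points passed the test over all genes. The disulfide isomerases lie farthest to the right as a group, with a median of 1.34, and Canx is the only gene below 0.

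A few facts of the whole series bear on all these values. Array medians lay between 45.3 and 45.5 intensity units in DBZ arrays and between 44.9 and 46.3 in vehicle arrays. Lgr5 was at 209 to 242 units in DBZ arrays and 204 to 271 in vehicle arrays, while the goblet cell mucin Muc2 was at 18493 to 23439.7 and 15797 to 18527, so that the sorted cells carried bright transcripts of secretory cells in both groups. In such a bulk sample a higher share of a cell type and more RNA per cell cannot be told apart. The actin control probe sets, whose 3′ to 5′ signal ratio grows as RNA degrades, gave ratios of 1.51 to 1.57 in DBZ arrays, against 2.22, 1.61 and 1.69 in vehicle replicates 1, 2 and 3. The same ratio of Gapdh was 1.05 to 1.095 in DBZ arrays, against 1.42, 1.11 and 1.07 in the vehicle replicates. Vehicle replicate 1 thus stood apart in both, and its part in the results was not tested beyond leaving it out. Of 5 markers of crypt base stem cells 2 fell, Olfm4 at -6.63 and Ascl2 at -1.03. The other 3 did not pass, with Lgr5 at -0.08, Smoc2 at 0.14 and Slc12a2 at 0.43. Every DBZ array of Slc12a2 lay above every vehicle array. The sum of the 5 was 6950.3 to 7567 units in DBZ and 8674 to 10899 in vehicle arrays, and Olfm4 contributed 18.6 to 35.9 units to it in DBZ and 3627 to 5177 in vehicle arrays.

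Protein disulfide isomerases, the enzymes that make and rearrange disulfide bonds in the ER, had the highest median of the 5 roles. Of 6, 4 rose and 0 fell, all 6 had every DBZ array above every vehicle array, and the median difference was 1.34. Pdia5 had 2432, 3317 and 3806 intensity units in the DBZ arrays, against 652, 660.2 and 659.5 in the vehicle arrays. The vehicle values were nearly equal, and the lowest DBZ value was far above them. Pdia5 rose by 2.23 ± 0.16 on the log2 scale (SE, n = 3; limma, adjusted p = 0.0058), the smallest adjusted p of the 40 genes. Its call held in 18 of 19 alternative fits and was lost without vehicle replicate 2.

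Pdia6 had 4335, 5634 and 8093 units in DBZ arrays, against 1413, 1941 and 1803 in vehicle arrays. Txndc5, which encodes ERp46, had 4182, 5748 and 5907 units in DBZ arrays, against 1609, 2150.1 and 2105 in vehicle arrays. For both genes DBZ replicate 1 was the lowest of its group and still well above all vehicle arrays. They rose by 1.76 ± 0.24 and 1.42 ± 0.17 (SE, n = 3; limma, adjusted p = 0.027 and 0.023). Txndc5 has a second bright probe set, which gave 1.42 as well.

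Pdia3, the partner of calreticulin and calnexin on glycoproteins, had 7131, 7970.2 and 10896 units in DBZ arrays, against 3265, 4450.0 and 4797 in vehicle arrays, and rose by 1.05 ± 0.21 (SE, n = 3; limma, adjusted p = 0.047). Pdia4 averaged 1577 ± 729 units in DBZ arrays and 614 ± 72.6 in vehicle arrays, and P4hb averaged 11116 ± 1736 and 7525 ± 641 (SD, n = 3). Neither passed the test, at 1.25 ± 0.30 and 0.55 ± 0.13 (SE; limma, adjusted p = 0.066 and 0.065). In both genes the groups did not overlap.

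Among chaperones and folding helpers Canx was the exception to a common direction. Of 15, 6 rose and 0 fell, 14 had every DBZ array above every vehicle array, and the median difference was 0.76. Fkbp11, a peptidyl-prolyl isomerase of secretory cells, had 474, 1289 and 1533 units in DBZ arrays, against 175, 153 and 156 in vehicle arrays. DBZ replicate 1 stood well below the other DBZ arrays and above all vehicle arrays. The rise of 2.49 ± 0.42 was the largest of the 40 genes (SE, n = 3; limma, adjusted p = 0.035). The other probe sets of Fkbp11 were dim in both groups, at 74.3 and 16.3 units in DBZ and 65.5 and 16.7 in vehicle arrays, and gave 0.14 and -0.02.

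The genes of the small ER proteins that work beside BiP followed. Sdf2l1, a partner of the J-protein ERdj3, had 1623, 1788 and 3211 units in DBZ arrays, against 638, 740.0 and 774 in vehicle arrays. Manf, a secreted factor that is held in the ER by BiP, had 5876, 7123 and 11247 units in DBZ arrays, against 2869, 3559 and 3479 in vehicle arrays. In each the groups were apart and DBZ replicate 3 was the highest array. They rose by 1.54 ± 0.26 and 1.24 ± 0.24 (SE, n = 3; limma, adjusted p = 0.034 and 0.047). Creld2, another stress-induced ER protein, averaged 2414 ± 1489 units in DBZ arrays and 651 ± 30.5 in vehicle arrays (SD, n = 3). Its DBZ arrays ranged from 1352 to 4116, and its difference of 1.70 ± 0.39 did not pass (SE; limma, adjusted p = 0.061).

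The glycoprotein quality control cycle gave mixed values. Uggt1, which re-tags unfolded glycoproteins with glucose, had 576, 689.7 and 789 units in DBZ arrays, against 388, 397 and 340.0 in vehicle arrays, and rose by 0.83 ± 0.13 (SE, n = 3; limma, adjusted p = 0.030). Calr, the soluble lectin chaperone, had 9687, 10479.8 and 12913 units in DBZ arrays, against 7424, 6804 and 6658 in vehicle arrays, and rose by 0.65 ± 0.12 (SE, n = 3; limma, adjusted p = 0.039). Both had groups apart. Canx, its membrane-bound counterpart, had 6316, 5376 and 5963 units in DBZ arrays, against 5472, 6405 and 6459.8 in vehicle arrays. The groups overlapped, and the difference of -0.05 had a 95% interval from -0.29 to 0.18 (limma, adjusted p = 0.77). The probe sets of Canx disagreed: a second gave 0.20, and the remaining one, at 362 units in DBZ and 529.7 in vehicle arrays, gave -0.52 with every DBZ array below every vehicle array.

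The main chaperones were higher without passing the test. Hspa5 had 9239.9, 11447 and 16669 units in DBZ arrays, against 6509, 6187 and 6375 in vehicle arrays. Hsp90b1, which encodes the Hsp90 of the ER, had 5939.8, 6326 and 9946 units in DBZ arrays, against 4089.7, 5044 and 5331 in vehicle arrays. The groups were apart for both, with the vehicle arrays of Hspa5 close together and its DBZ arrays widely spread. Their differences were 0.92 ± 0.21 and 0.59 ± 0.22 (SE, n = 3; limma, adjusted p = 0.057 and 0.15). A second bright probe set of Hspa5 gave 1.25 and the other 0.07.

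Of the J-proteins that pass clients to BiP, Dnajb9, Dnajb11 and Dnajc3 had differences of 0.74, 0.69 and 0.76, and Hyou1, its nucleotide exchange factor, had 0.85. None of these passed (limma, adjusted p = 0.074, 0.076, 0.13 and 0.13), and in each every DBZ array lay above every vehicle array. Among the prolyl isomerases, Fkbp2 had 2424, 2665 and 2900.0 units in DBZ arrays, against 2002, 2060.3 and 1995 in vehicle arrays. Its groups were apart and tight, and it rose by 0.39 ± 0.08 (SE, n = 3; limma, adjusted p = 0.048). Ppib was at 0.69 ± 0.16 and did not pass (SE; limma, adjusted p = 0.063).

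**Figure D3:**
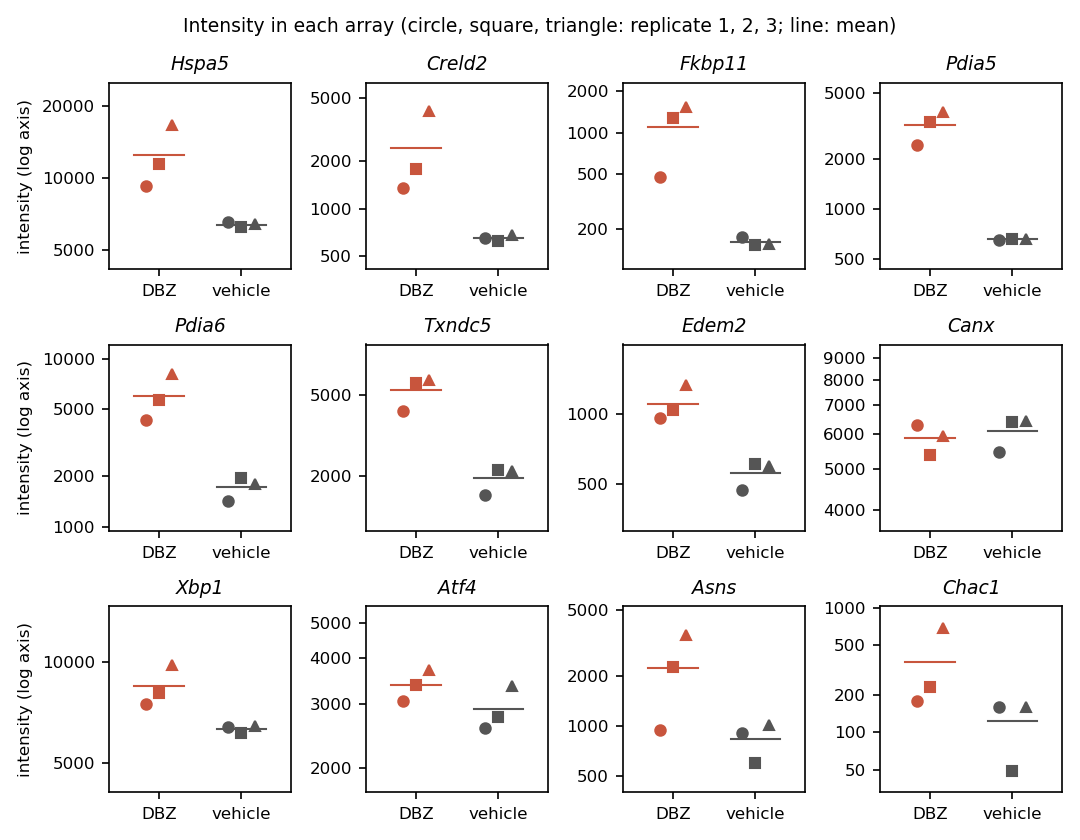
Intensity of 12 of the genes in each array on log axes, with the 3 DBZ arrays left of the 3 vehicle arrays; circle, square and triangle mark replicate 1, 2 and 3, and lines mark group means. The groups are apart for Hspa5, Creld2, Fkbp11, Pdia5, Pdia6, Txndc5, Edem2, Xbp1 and Chac1, and overlap for Canx, Atf4 and Asns.

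ERAD genes had smaller differences at the median. Of 9, 1 rose and 0 fell, 6 had every DBZ array above every vehicle array, and the median difference was 0.51. Edem2, the mannosidase that starts the trimming which marks a glycoprotein for disposal, had 956, 1036 and 1322 units in DBZ arrays, against 471, 607 and 595 in vehicle arrays. Its groups were apart, and it rose by 0.96 ± 0.15 (SE, n = 3; limma, adjusted p = 0.032). Its relative Edem1 was at 0.47 ± 0.15 (SE; limma, adjusted p = 0.12).

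Genes of the HRD1 ubiquitin ligase complex and its partners were below the threshold. Syvn1, the ligase itself, averaged 945 ± 175 units in DBZ arrays and 650.3 ± 4.16 in vehicle arrays (SD, n = 3), a difference of 0.51 ± 0.13 (SE; limma, adjusted p = 0.073). Its adaptor Sel1l was at 0.49, Herpud1 at 0.59 and Derl2 at 0.52, each with groups apart and none past the test. Derl3 was at 0.65 with overlapping groups (limma, adjusted p = 0.25). Os9, a lectin that recognises trimmed glycoproteins, was at 0.08 with a 95% interval from -0.11 to 0.27. A dimmer probe set of Os9, at 119 units in DBZ and 91.9 in vehicle arrays, gave 0.33 with every DBZ array above every vehicle array. Derl1 was at 0.05 with an interval from -0.31 to 0.42, while its other probe sets gave 0.46, 0.45 and 0.21.

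Of the 4 sensors and early effectors 0 passed the test by limma, 3 had an unadjusted p under 0.05, and 4 of 4 had positive differences. Eif2ak3 had 979, 1125 and 1527 units in DBZ arrays, against 629, 750.1 and 686 in vehicle arrays. Atf6 had 665, 870.4 and 1067 units in DBZ arrays, against 520.0, 603 and 539 in vehicle arrays. Xbp1 had 7520.1, 8072 and 9805 units in DBZ arrays, against 6406, 6136 and 6434 in vehicle arrays. For these 3 genes every DBZ array was above every vehicle array.

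Their differences were 0.78 ± 0.17, 0.61 ± 0.17 and 0.41 ± 0.11 (SE, n = 3; limma, adjusted p = 0.054, 0.089 and 0.076). Ern1 had 574, 677 and 827 units in DBZ arrays, against 615, 515 and 648 in vehicle arrays. Its groups overlapped, at 0.21 with a 95% interval from -0.16 to 0.58 (limma, adjusted p = 0.43). The values give the total Xbp1 message and say nothing of its splicing. The other probe sets of Xbp1 gave 0.76, 0.67 and, at 151 units in DBZ and 155 in vehicle arrays, -0.02. Xbp1 passed the test without _x_at and _s_at probe sets and with the probe set of largest variance. Over the 19 alternative fits Eif2ak3 passed in 6, Xbp1 in 4, Atf6 in 2 and Ern1 in 0.

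The ATF4-CHOP genes had the lowest median of the 5 roles. Asns, Chac1 and Trib3 had wide ranges among DBZ mice, while Atf4, Ddit3 and Ppp1r15a had narrow ones. Of 6, 1 rose and 0 fell, 3 had every DBZ array above every vehicle array, and the median difference was 0.33. By the mean in each array, given below, the branch was not the lowest role in DBZ replicates 2 and 3. Atf4, the transcription factor that PERK signalling favours, had 3046, 3382 and 3700.2 units in DBZ arrays, against 2578, 2757 and 3365 in vehicle arrays. The groups overlapped, and the difference of 0.22 had a 95% interval from -0.08 to 0.52 (limma, adjusted p = 0.31). ATF4 is set mainly at translation, which arrays do not measure.

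Ddit3, the gene of CHOP, had 326, 294 and 324 units in DBZ arrays, against 252, 249 and 240.4 in vehicle arrays. The groups were tight and apart. It rose by 0.33 ± 0.065 (SE, n = 3; limma, adjusted p = 0.047), the smallest of the 12 rises, and a second, dim probe set gave -0.08. Of the 6 fits that left out an array, 0 kept this call. Ppp1r15a, which restores translation and is induced by CHOP, was at 0.22 ± 0.09 with groups apart (SE; limma, adjusted p = 0.19).

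Targets of ATF4 in amino acid and redox metabolism varied widely between DBZ mice, and Chac1 also between vehicle mice. Asns, asparagine synthetase, had 939, 2247 and 3502 units in DBZ arrays, against 904, 597 and 1009 in vehicle arrays. Chac1, which degrades glutathione, had 179, 232 and 689 units in DBZ arrays, against 161, 49.2 and 159.5 in vehicle arrays. Trib3, a pseudokinase induced through ATF4 and CHOP, had 170.2, 222 and 481 units in DBZ arrays, against 225, 204 and 191 in vehicle arrays. DBZ replicate 1 lay within the vehicle range for Asns, below it for Trib3 and just above it for Chac1, while DBZ replicate 3 was the highest array for all 3.

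Their differences were 1.24 ± 0.48, 1.36 ± 0.60 and 0.33 ± 0.35 (SE, n = 3; limma, adjusted p = 0.17, 0.21 and 0.59). Asns passed in the fit without DBZ replicate 1, where its difference was 1.76 (limma, adjusted p = 0.024). Trib3 was at -0.08 in the fit without DBZ replicate 3. The median ratio of the highest to the lowest DBZ array was 2.02 in this branch, 1.67 for the chaperones, 1.55 for the disulfide isomerases and 1.40 for ERAD. Within the vehicle arrays the same ratio was 1.25, 1.17, 1.30 and 1.24. The DBZ median of this branch lies between unlike genes. The DBZ ratio was 3.729 for Asns, 3.855 for Chac1 and 2.824 for Trib3. It was 1.215 for Atf4, 1.111 for Ddit3 and 1.166 for Ppp1r15a.

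The DBZ mice kept a common order across the 40 genes. DBZ replicate 3 was the highest DBZ array for 38 of 40, against 32.4% of all genes and 65.9% of the genes whose DBZ arrays were all above the vehicle arrays. The 2 exceptions were Canx and Ddit3. DBZ replicate 1 was the lowest for 31 of 40, against 33.3% of all genes, and the exceptions included 6 of the 9 ERAD genes. The mean of the 40 genes, set against the vehicle mean on the log2 scale, was 0.51, 0.71 and 1.20 in DBZ replicates 1, 2 and 3, against -0.04, -0.02 and 0.06 in vehicle replicates 1, 2 and 3. All DBZ arrays were above all vehicle arrays, and the DBZ arrays differed among themselves far more than the vehicle arrays did.

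By role the same means show where the mice differed. Disulfide isomerases were at 1.03, 1.36 and 1.74 in DBZ replicates 1, 2 and 3, chaperones at 0.58, 0.86 and 1.36, and ERAD genes at 0.37, 0.27 and 0.80. Sensors were at 0.24, 0.47 and 0.79, and ATF4-CHOP genes at 0.20, 0.52 and 1.13. By these means the ATF4-CHOP genes were the lowest role in DBZ replicate 1. They lay above ERAD genes and sensors in DBZ replicates 2 and 3. Vehicle arrays lay between -0.20 and 0.12 for the isomerases, between -0.01 and 0.01 for the chaperones, and between -0.23 and 0.15 for ATF4-CHOP genes. The DBZ replicate 1 value of the ATF4-CHOP genes was thus close to the highest vehicle value, while that of the isomerases was far above it. These means share their arrays, and the members of a role are not replicates, so no test was made between roles.

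**Figure D4:**
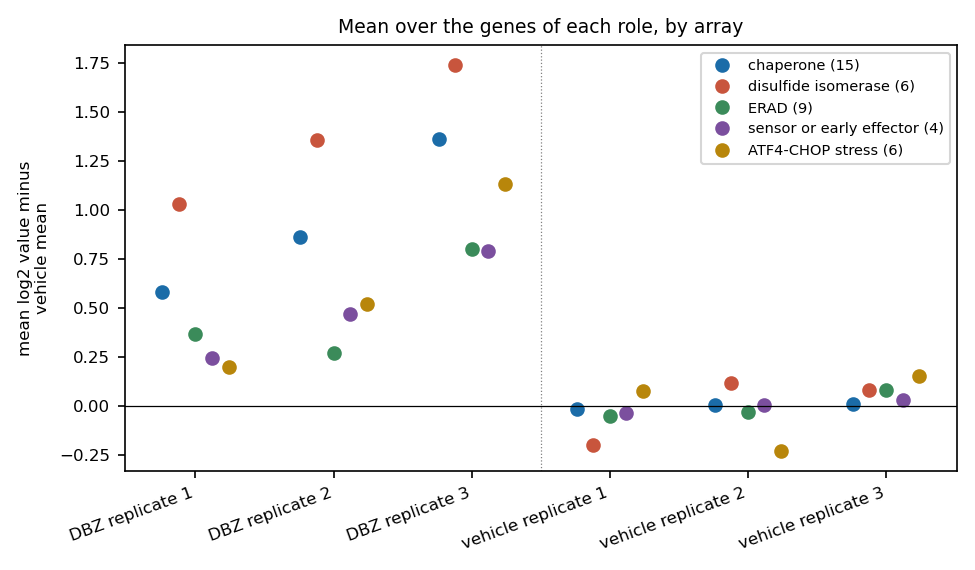
Mean over the genes of each role of the log2 value minus the vehicle mean of each gene (y axis), for each DBZ and vehicle array (x axis), with the number of genes in brackets. DBZ replicate 3 is the highest array for every role, and the disulfide isomerases are the highest role in each DBZ array.

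Other probe sets of the same genes mostly pointed the same way. Of the 40 genes 29 had more than 1 probe set, which gave 51 further values. Of the 35 with a mean of at least 100 units in either group, 33 were positive and 26 had every DBZ array above every vehicle array. Canx and Xbp1 were the 2 genes with an opposite sign among these brighter probe sets. Counting the dim ones, 39 of 51 were positive and 10 genes had a probe set of opposite sign.

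Genes with and without an exact ERSE match in the promoters read had close medians. The 9 genes with the element had a median of 0.65, with 2 past the test, and the 27 without it had a median of 0.69. The 27 include Dnajb11 and Herpud1, which hold an ERSE-II. Inexact forms of the element and sites outside the promoters read were not searched, so these medians do not show whether the element matters. Genes with the element ran from Canx at -0.05 to Creld2 at 1.70 and Pdia6 at 1.76. Pdia5 and Fkbp11, with the 2 largest rises, held none of the 4 elements in the promoters read.

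A wider list of other ER and stress genes was set beside the 40. Of 106 listed, 101 were measured, of which 18 rose and 1 fell, with a median of 0.34. Over all 18193 genes 3.82% rose and 1.52% fell. Other chaperones and redox enzymes had 9 of 36 higher and a median of 0.37, and other sensors and ER factors 7 of 15 and 0.65. Other ERAD genes had 1 of 26 higher and a median of 0.19, and other targets and kinases of the eIF2alpha branch 1 of 24 higher, 1 lower and a median of 0.35. In both of these lists the share that rose was close to that of all genes. Leaving out any 1 of the vehicle arrays left 0 of the 101 past the test in either direction, and leaving out DBZ replicate 1, 2 or 3 left 36, 1 and 5 higher.

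Several of these genes belong to secretory epithelium. Agr2, a disulfide isomerase needed for mucin folding, had 14465, 20343 and 21868 units in DBZ arrays, against 6696, 7291 and 6365 in vehicle arrays. Ern2, the epithelial form of IRE1, had 839, 1314 and 1445 units in DBZ arrays, against 395, 457 and 367 in vehicle arrays. Creb3l4, an ER-anchored transcription factor, had 635, 941 and 1201 units in DBZ arrays, against 161, 251 and 234 in vehicle arrays. In each the groups were far apart and DBZ replicate 1 was the lowest DBZ array.

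They rose by 1.46 ± 0.16, 1.49 ± 0.21 and 2.00 ± 0.26 (SE, n = 3; limma, adjusted p = 0.020, 0.027 and 0.025). The broadly used form Ern1 was at 0.21, and the difference between both forms was not tested. Creb3l1, of the same family as Creb3l4, rose by 1.66 ± 0.27 (SE, n = 3; limma, adjusted p = 0.033). Dnajc10, an ER reductase that serves ERAD and folding, rose by 1.77, the sulfhydryl oxidase gene Qsox1 by 1.39, the calcium-binding Rcn1 by 1.49, the signal peptidase gene Spcs2 by 1.12 and Prkcsh, of glucosidase II, by 0.39 (limma, adjusted p = 0.027, 0.028, 0.031, 0.032 and 0.030).

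Neither oxidase that recharges disulfide isomerases passed the test. Ero1a, listed under its older symbol Ero1l, had 452, 515 and 1165 units in DBZ arrays, against 419, 369 and 437 in vehicle arrays. Its groups were apart, at 0.65 ± 0.34 (SE, n = 3; limma, adjusted p = 0.29). Ero1b, listed under its older symbol Ero1lb, had 354, 303 and 472 units in DBZ arrays, against 324, 264 and 277 in vehicle arrays. Its groups overlapped, at 0.35 ± 0.17 (SE, n = 3; limma, adjusted p = 0.25). Atf3, a stress factor downstream of ATF4, had 551, 284 and 580.4 units in DBZ arrays, against 313, 217 and 614 in vehicle arrays, also with overlap (limma, adjusted p = 0.65). Of the 24 other genes of the eIF2alpha branch, 18 had differences above 0 and 6 above 1, against 45.4% and 2.12% of all genes. In 7 every DBZ array lay above every vehicle array and in 1 below, against 17.3% and 15.8% of all genes. Vldlr rose by 1.15 ± 0.23 and Cth, an enzyme of cysteine synthesis, fell by 0.78 (limma, adjusted p = 0.048 and 0.043). Cth had 819, 914 and 818 units in DBZ arrays, against 1213, 1792 and 1452 in vehicle arrays, and its groups did not overlap.

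Markers of other cells moved in the same arrays, where 3.82% of all genes rose and 1.52% fell. Of 7 goblet cell markers 2 rose, Spdef and Fcgbp, at 1.78 and 0.61. The summed intensity of the 7 was 120617 to 144994 in DBZ and 101997 to 109277 in vehicle arrays, with DBZ replicate 1 the lowest DBZ array for 7 of 7. The sum says little of dim markers such as Spdef, at mean intensities of 966 units in DBZ and 260 in vehicle arrays. Tff3, at 29870.8 and 29678.8 units, was the highest intensity of DBZ replicates 2 and 3. Whether a ceiling limited the brightest markers was not tested. Of 7 Paneth cell markers Mmp7 rose and Pnliprp2 fell, and the sum was 33869 to 66825 in DBZ and 65108 to 76530.1 in vehicle arrays. Of the 7, 6 had differences below 0, and in 4 every DBZ array lay below every vehicle array. Ang4 at -2.70 and Mptx1 at -2.25 were among these 4 and did not pass the test. Of 6 enteroendocrine markers 2 rose, with sums of 3129 to 8328 and 1921 to 2428. DBZ replicate 1 was also the lowest DBZ array for 7 of 7 Paneth cell markers and 6 of 6 enteroendocrine markers. Their part in the ER result was not tested.

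Plasma cells and pancreatic acinar cells, which are rich in ER, gave other values. Of 8 measured plasma or B cell markers 0 passed (limma; 1 at an unadjusted p under 0.05), and their sum of 12512 to 15248 units in DBZ arrays overlapped 12351 to 15663 in vehicle arrays. Jchain alone made up most of it, at 10227 to 12402 units in DBZ and 9372 to 12379.9 in vehicle arrays, and DBZ replicate 1 was the highest DBZ array for 7 of the 8. Of 5 acinar markers 0 passed (limma; 1 at an unadjusted p under 0.05), and their sum was 168 to 175 units in DBZ and 175 to 187 in vehicle arrays, all of them dim.

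Markers of fibroblasts or smooth muscle and of endothelium had positive differences in every measured gene. Of 8 fibroblast or smooth muscle markers 5 rose, with a sum of 37888 to 45145 units in DBZ and 17811 to 26218 in vehicle arrays. Endothelial markers summed to 627 to 760.2 units in DBZ and 461 to 547 in vehicle arrays, with 1 of 6 higher. Neutrophil or macrophage markers were mixed. Of 5, the neutrophil genes S100a8 and S100a9 rose, with DBZ replicate 2 the lowest DBZ array for both. The macrophage markers did not pass, with Adgre1 at 0.76, Lyz2 at 0.06 and Csf1r at -0.34. The sum of the 5 was 5345 to 12834 units in DBZ arrays and overlapped 5134 to 6283 in vehicle arrays. Both measured adipocyte markers were higher, 1 of them past the test, with sums of 4251 to 10133 and 1206 to 2630.3. The 5 measured enterocyte markers all had differences below 0 and summed to 45272 to 52752 and 53399 to 57120, with 0 past the test (limma; 2 at an unadjusted p under 0.05). The part of these cells in the ER result was not tested.

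**Figure D5:**
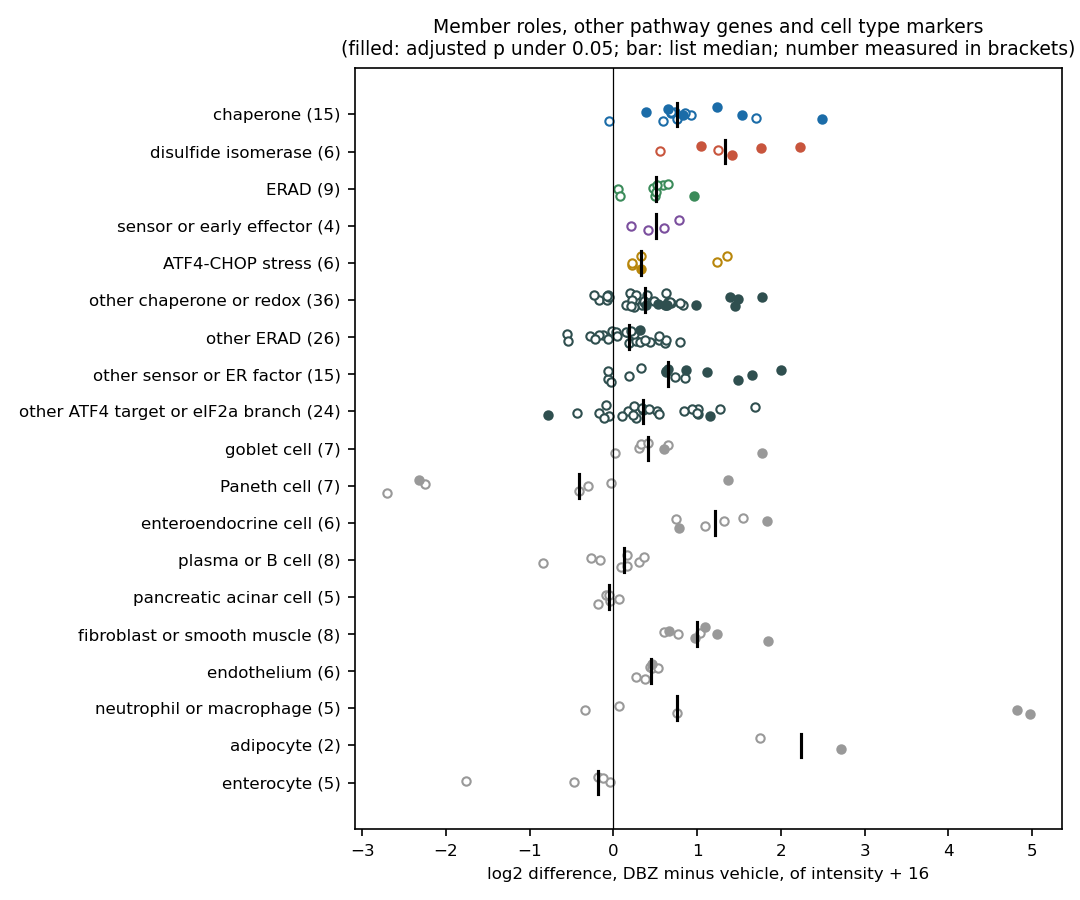
Log2 difference, DBZ minus vehicle, of every measured gene in the 5 roles, in 4 lists of other ER and stress genes and in 10 lists of cell type markers, with list medians as bars and genes past the test filled. The disulfide isomerases have a median of 1.34, the fibroblast or smooth muscle markers 1.00 and the plasma or B cell markers 0.13.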

How the data were processed

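The authors deposited linear intensities, 1 per probe set, for 6 Affymetrix arrays. Per the labels' protocols, an Affymetrix IVT kit served for amplification and labelling. How background was corrected and arrays were normalized is not given in the sources used here. Array medians were nearly equal.

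Of 45101 probe sets, 64 were controls, and 34958 had a single symbol, 932 several and 9160 none outside the controls. The probe set with the highest mean log2(intensity + 16) stood for each of 18193 genes. DBZ and vehicle arrays (n = 3 each) were compared by moderated linear models (limma 3.58.1, R 4.3.3), and p-values were adjusted across the 18193 genes by Benjamini-Hochberg, with calls under 0.05. The fit was tested on simulated data. Promoters came from RefSeq (GRCm38.p6); no other genome sequence was used. The consensus motifs searched come from general knowledge of the response, not from a file.

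The members and lists were chosen with earlier results of these data known. Every member is named, with values in every array for those past the test (up to 6 per role) and for 11 chosen genes. Of other ER genes, up to 8 past the test by smallest p and 6 chosen ones are named, except Gdf15, which is not analysed here. Further calls are counted only, while Vldlr, Cth and Ero1a were named after their values were seen. Alternatives covered normalization, pseudocount, filters, probe set choice, variance models, the replicate number as a block and each array left out.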

Additional observations from a re-analysis of the deposited data

How the results depend on the processing

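In all 19 alternative fits the median difference of the 40 genes stayed positive. The count of members that rose was 12. It was 5 with a pseudocount of 64, 19 and 20 when only genes above the median gene, or genes of at least 100 units in 3 arrays, were tested, and 24 with array weights. In those 4 fits 1.7%, 9.64%, 10.2% and 9.12% of all genes tested rose, against 3.82% as reported. The count ranged from 0 to 22 over the fits that left out 1 array. The filters test fewer genes, and the cause of the other changes was not tested. With the probe set of largest variance 1 member was lower, Canx. For the other ER and stress genes the counts of 18 higher and 1 lower became 7 and 0 with a pseudocount of 64, 35 and 3 with array weights, and 0 to 36 and 0 to 1 with 1 array left out. Over all genes the 972 calls became 440 with a pseudocount of 64, 2690 with array weights and 19 to 2032 with 1 array left out. Of the differences of single members, 6 changed sign, all of genes not past the test: Canx was at 0.20 without _x_at and _s_at probe sets and ranged from -0.13 to 0.0099 with 1 array left out, Derl1 ranged likewise from -0.10 to 0.13 and Trib3 from -0.080 to 0.63, and Ern1 was at -0.010 as the mean of its probe sets. Whether the replicate numbers pair the mice could not be settled with 3 mice per group. Deviations from the group means correlated at -0.01, 0.25 and 0.20 for numbers 1, 2 and 3. DBZ replicates 2 and 3 each correlated best with the vehicle array of the same number, and DBZ replicate 1 did not. With the replicate number as a block 9 members rose, 15 other ER genes rose and 2 fell, and 889 genes were called. No detection calls were given, so dim probe sets could not be set against a background level.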

Other observations

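Outside the 40 genes, 11 measured genes had an ERSE in the promoter, and their median difference was -0.08, with 5 of 11 above 0. Many of the 11 were dim, so that the signs of their differences say little. Spats2l, named after its values were seen, was the 1 gene past the test among them, at 1047 units in DBZ and 415 in vehicle arrays, a difference of 1.24 (limma, adjusted p = 0.049). Alg12, a mannosyltransferase that builds the sugar chain for N-glycosylation, was at 175 and 119 units with every DBZ array above every vehicle array, at 0.49 (limma, adjusted p = 0.062). Of the other genes above 100 units in both groups, Ero1b was at 0.35 and Pan2, at 411 units in DBZ and 452 in vehicle arrays, was at -0.12. Tdrd9, Zfp57 and Ptgdr2 were among those with means under 30 units in both groups, at 21.3, 15.7 and 22.4 in DBZ and 23.6, 18.4 and 26.4 in vehicle arrays. Of 7 further genes with an ERSE-II, Krtcap2, of the oligosaccharyltransferase complex, was at 2442 and 1421 units, a difference of 0.75, and Nucb1 at 2019 and 1676 units, a difference of 0.27, both with groups apart and neither past the test (limma, adjusted p = 0.069 and 0.080).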
